A study of Mus musculus with 12 samples.

Results

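Circular RNAs (circRNAs) of 4T1, a mouse breast cancer cell line, were compared with those of Eph4-ev, a line the labels describe as breast epithelial cells. All 3 libraries of each line were used, 6 of the 12 libraries of the series. The members are every circRNA row of the mammary table, 9492 of the 12830 circRNAs with reads in the series, and they come from 3617 host genes where a single host is named. RNA of all 6 libraries had been treated with RNase R, an exonuclease that removes linear RNA. No treatment, transgene or genotype is given for either line, and each line stands for 1 tissue state, so that tumour state cannot be told apart from any other difference between the lines. Nothing in the labels says that the 3 libraries of a line came from separate cultures, so p-values measure the spread between libraries, which may be technical. In bulk RNA, fewer cells with a transcript and less of it per cell cannot be told apart.

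A circRNA forms when the end of an exon is spliced back to the start of the same or an earlier exon, which closes the RNA into a loop without free ends. A gene can give several circRNAs, which differ in the exons they hold. Reads across the back-splice junction identify each of them and were the unit counted. Such reads do not measure the linear mRNA of the host gene, since circular and linear RNAs of a gene are made and lost at different rates.

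Depth was 15572, 17735 and 44625 junction reads in 4T1 and lay in Eph4-ev between 50648 and 56649, so raw reads are given beside these totals and folds are scaled for depth. The start of 99.2% of circRNAs and the end of 99.3% lay at exon edges of GENCODE M21 (mm10). Libraries of the same line differed by more than counting noise (chi-square per degree of freedom 3.05 to 3.99), and none was a copy of another. Log2 levels of the better-read circRNAs correlated only weakly between libraries of 4T1 (0.20 to 0.31) and moderately between those of Eph4-ev (0.46 to 0.52). This limits the results for single circRNAs. Of the markers of other cell types, 0 of 27 immune genes and 1 of 17 melanocyte genes had circRNA reads. Of 25 luminal mammary markers 7 had reads, and their summed level was 1927 to 3721 RPM (the count scaled to the library's total, as deposited) in 4T1 and 2012 to 2772 in Eph4-ev. Of 17 basal markers 4 had reads, summing to 157 to 385 RPM in 4T1 and 88.3 to 144 in Eph4-ev, and none had enough to be tested. Cd44 had 4, 0 and 0 reads in 4T1 against 6, 2 and 4 in Eph4-ev, and Itgb4 2, 0 and 5 against 1, 3 and 4. Itga6 (0, 0 and 2) and Itgb1 (0, 3 and 0) had reads in 4T1 alone. Of 25 mesenchymal markers 2 had reads, both in Eph4-ev alone: Fn1 (0, 0 and 1) and Zeb1 (6, 10 and 7). Circular reads of Krt7, Epcam, Grhl2 and Esrp1, which mark luminal epithelium, were present in all 6 libraries, and edgeR called none of these 4. The other luminal markers with reads had few: Cdh1 had 2, 0 and 0 in 4T1 against 2, 0 and 0 in Eph4-ev. Erbb3 had 0 in 4T1 against 3, 0 and 4, and Esr1 had 3, 4 and 2 against 0.

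Both directions of change were seen, and the balance between them differed by setting, for causes that were not tested. Of 1869 circRNAs with enough reads for edgeR's quasi-likelihood test, 112 were higher in 4T1 (5.99%) and 213 lower (11.4%) at a Benjamini-Hochberg adjusted p under 0.05. Scaling by total reads alone, in place of the TMM factors, gave 142 higher and 176 lower, and moved the median log2 fold (4T1 minus Eph4-ev) from -0.22 to -0.01. With all libraries thinned to equal depth, where only 719 circRNAs could be tested, 52 were higher and 48 lower, so the excess of lower calls was not seen there. A minimum count of 10 kept it, with 103 higher and 157 lower. Summed over the circRNAs of each host, 1515 hosts could be tested, of which 104 were higher (6.86%) and 161 lower (10.6%), with a median of -0.09 (at equal depth 54 and 58 of 727). Of these, 28 higher and 40 lower hosts kept their call whichever library was left out. The other 7623 circRNAs and 2102 hosts had too few reads.

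The junctions of the circRNAs that differed most follow. Each is written 5′ to 3′ from the GENCODE M21 transcript, with the last 15 bases of the circle in lower case and its first 15 bases, to which they are joined, in capitals.

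Qk, exons 2 to 3, chr17:10273947-10282981, minus strand: agggataaaaagaagAAATTAGCAGAGTAC
Adk, exons 5 to 6, chr14:21234833-21240571, plus strand: gtttactacatagctTGGTTGATTCAGGAG
Phlpp1, exons 2 to 3, chr1:106281363-106287116, plus strand: cggcaagtctccaagGAAAGCCTCATAGCA
Ptbp3, exons 3 to 5, chr4:59514274-59524476, minus strand: ctgcctaatcaggctCGGGGATCTGATGAG
Vapa, exons 2 to 4, chr17:65592291-65595054, minus strand: gaaaatgataagctgGCCCCTTCACAGATG
Dtnb, exons 5 to 8, chr12:3617606-3648389, plus strand: gagcattcctcttggTGAGGGCCGAGGCAA
Fam160b1, exons 6 to 7, chr19:57378549-57379175, plus strand: ggcagttaactggggAACAAATCAAAGTCC
Stk39, exons 11 to 14, chr2:68307041-68314603, minus strand: tgttttaagattaagGTAAGGCGAGTTCCT
Rad23b, exons 2 to 4, chr4:55366777-55370472, plus strand: agcaccagctgacagGTAAAGGCATTGAAA
Zfpm2, exons 2 to 3, chr15:40752896-40774146, plus strand: actgggatggaccagGGCCGCTGGAAGATG

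Among circRNAs with a mean of 5 or more reads in each line, the higher ones came from genes of unlike function. The junction of Phlpp1, a phosphatase that acts on Akt, had 42, 83 and 215 reads in 4T1 against 35, 24 and 43 in Eph4-ev (log2 fold 2.48 with SE 0.32, edgeR adjusted p = 0.000751). That of Adk, adenosine kinase, had 25, 32 and 39 against 6, 8 and 11 (log2 fold 2.92 with SE 0.45, adjusted p = 0.00224). In raw reads, the 4T1 libraries lay above the Eph4-ev libraries for both, although the 4T1 libraries held fewer reads in all, except for Phlpp1 in replicate 1 (42 reads against 43 in Eph4-ev replicate 3). Fndc3a, which encodes a fibronectin type III domain protein, had 22, 21 and 35 reads over exons 2 to 3 against 9, 7 and 4 (log2 fold 2.89 with SE 0.51, adjusted p = 0.00495). Acbd6, an acyl-CoA binding protein gene, had 22, 19 and 81 over exons 4 to 6 against 10, 21 and 4 (log2 fold 2.53 with SE 0.53, adjusted p = 0.0124). Uvrag, an autophagy and endosome gene, had 11, 28 and 75 over exons 4 to 6 against 14, 11 and 9 (log2 fold 2.45 with SE 0.47, adjusted p = 0.00798). Raw reads of Acbd6 and Uvrag overlapped between the lines, and the call of Uvrag was lost without Eph4-ev replicate 2 (adjusted p = 0.0646).

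The lower circRNAs had more reads, most of them from the Eph4-ev libraries, which were the deeper ones. Over all called circRNAs, the median of reads was 82 for the lower and 56 for the higher, not scaled for depth. The junction of Ptbp3, a splicing regulator of the polypyrimidine tract binding family, had 9, 31 and 36 reads in 4T1 against 375, 455 and 435 in Eph4-ev (log2 fold -3.15 with SE 0.29, edgeR adjusted p = 9.77e-05). That of Vapa, an anchor of contact sites on the endoplasmic reticulum, had 26, 31 and 70 against 404, 464 and 424 (log2 fold -2.49 with SE 0.17, adjusted p = 8.16e-06). Dtnb, which encodes beta-dystrobrevin, had 30, 31 and 99 over exons 5 to 8 against 475, 544 and 493 (log2 fold -2.44 with SE 0.18, adjusted p = 1.82e-05). No 4T1 library reached the lowest Eph4-ev library for any of these 3, and each call held without any 1 library. A second Dtnb circRNA, exons 5 to 9, fell by the same order, with 3, 6 and 7 reads against 39, 90 and 47 (log2 fold -2.51 with SE 0.50, adjusted p = 0.00949), but not without Eph4-ev replicate 2 (adjusted p = 0.0898). A circRNA that spans the neighbours Eif5b, a translation initiation factor gene, and Rev1, a DNA polymerase gene, had 9, 4 and 23 reads against 168, 143 and 158 (log2 fold -2.88 with SE 0.33, adjusted p = 0.000457). The cytolinker gene Dst had 4, 0 and 25 reads over exons 2 to 5 against 110, 110 and 78 (log2 fold -2.67 with SE 0.59, adjusted p = 0.0139), and its call also rested on Eph4-ev replicate 2 (0.084 without it).

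**Figure D1:**
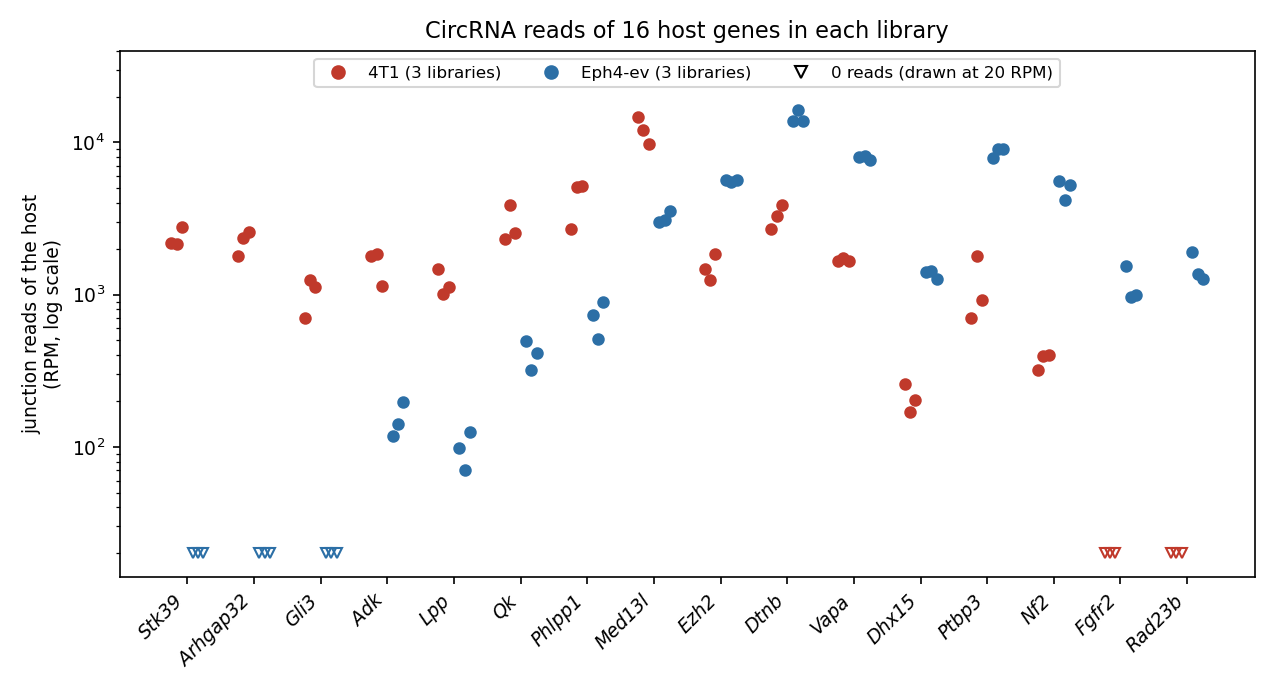
Junction reads summed per host gene, in RPM on a log scale, for 16 hosts named in the text, with 1 point per library (red 4T1, blue Eph4-ev, 3 each; open triangles are libraries with 0 reads, drawn at 20 RPM). For every host shown, the 3 libraries of one line lie apart from the 3 of the other.

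A part of the circRNAs gave reads in a single line. With a rule of at least 2 reads in each library of one line and 0 in all of the other, 52 circRNAs had reads in 4T1 alone (0.548% of the table) and 334 in Eph4-ev alone (3.52%). The uneven depth bears on this count: with all libraries thinned to 15572 reads, 58 met it in 4T1 and 76 in Eph4-ev. Folds for them are lower bounds, set against 3 counts, the floor taken over the 3 libraries without reads, and scaled by total reads; such floors cover counting error only. The junction of Fam160b1 had 25, 51 and 106 reads in 4T1, which is at least 124-fold higher than in Eph4-ev. Kirrel3os, a noncoding gene, had 26, 38 and 80 reads (chr9:34983621-34985144), at least 101-fold higher, and Mtcl1, which encodes a microtubule crosslinking factor, had 10, 30 and 73 over exons 2 to 3, at least 71.8-fold higher. In the other line, the junction of Rad23b, a factor of nucleotide excision repair, had 60, 55 and 50 reads (at least 26.5-fold lower in 4T1). Zfpm2, a cofactor of GATA transcription factors, had 44, 62 and 54 (at least 25.4-fold lower), and Glt1d1, a glycosyltransferase domain gene, had 32, 45 and 32 over exons 2 to 4 (at least 17.3-fold lower). The floors differ, at 38.5 RPM in 4T1 and 18.4 RPM in Eph4-ev, so bounds for the lines are not compared. CircRNAs and hosts without reads in 1 line passed the read filter only through the other line, so a call was nearly fixed in advance. All 40 tested circRNAs of 4T1 alone were called, and 92 of the 95 tested of Eph4-ev alone. They are 40 of the 112 higher and 92 of the 213 lower calls, and their adjusted p-values add no support beyond the reads.

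In some hosts every circRNA was seen in 1 line alone. Counted over all circRNAs of a host, 26 hosts had at least 2 reads in each 4T1 library and none in Eph4-ev (0.719% of 3617), and 127 had the opposite (3.51%). At equal depth these numbers were 37 and 39. Stk39, a kinase of the WNK pathway that controls ion cotransporters, had 14 circRNAs, whose 34, 38 and 125 reads in 4T1 faced 0 in Eph4-ev (at least 129-fold higher). Arhgap32, a GTPase activating protein gene, had 6 circRNAs and 28, 42 and 115 reads (at least 122-fold higher). Gli3, a transcription factor of hedgehog signalling, had 3 circRNAs and 11, 22 and 50 reads (at least 55.5-fold higher). Only Eph4-ev gave reads for the 5 circRNAs of Fgfr2, a fibroblast growth factor receptor (78, 55 and 55), the 4 of Zfpm2 (56, 74 and 60) and the 7 of St7 (26, 34 and 58). For Rps6kb1, the ribosomal S6 kinase gene, the 3 circRNAs had 58, 115 and 4 reads in Eph4-ev, so its level differed widely between libraries of 1 line, and it was not tested. Hosts in this paragraph other than Stk39, Arhgap32, Gli3, Fgfr2 and Zfpm2 were chosen after their values were seen.

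CircRNAs of fewer exons took a larger part of the reads in 4T1. Circles of 1 exon held 15.2%, 13.7% and 13.5% of the reads of the 4T1 libraries and 10.7%, 10.8% and 10.8% of those of Eph4-ev (14.1% ± 0.959 against 10.8% ± 0.0617, SD, n = 3 each). The lines did not overlap (exact two-sided permutation p = 0.1, the lowest that 3 against 3 can give; 0.167 adjusted over 5 such measures). Circles of 2 exons held 28.0% ± 1.51 against 25.3% ± 1.40, those of 3 to 5 exons 47.0% ± 1.72 against 52.0% ± 0.595, and those of 6 or more 8.87% ± 0.995 against 10.4% ± 0.795 (SD, n = 3). Without the 10 most read single-exon circRNAs the share was 7.18% ± 0.611 in 4T1 against 5.67% ± 0.185 in Eph4-ev (SD, n = 3). The lines did not overlap there either, but the gap was smaller than over the whole class. With every library thinned to the same depth, 6.46% ± 0.331 of the circRNAs detected in 4T1 had 1 exon and 5.54% ± 0.240 of those in Eph4-ev (SD, n = 3).

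**Figure D2:**
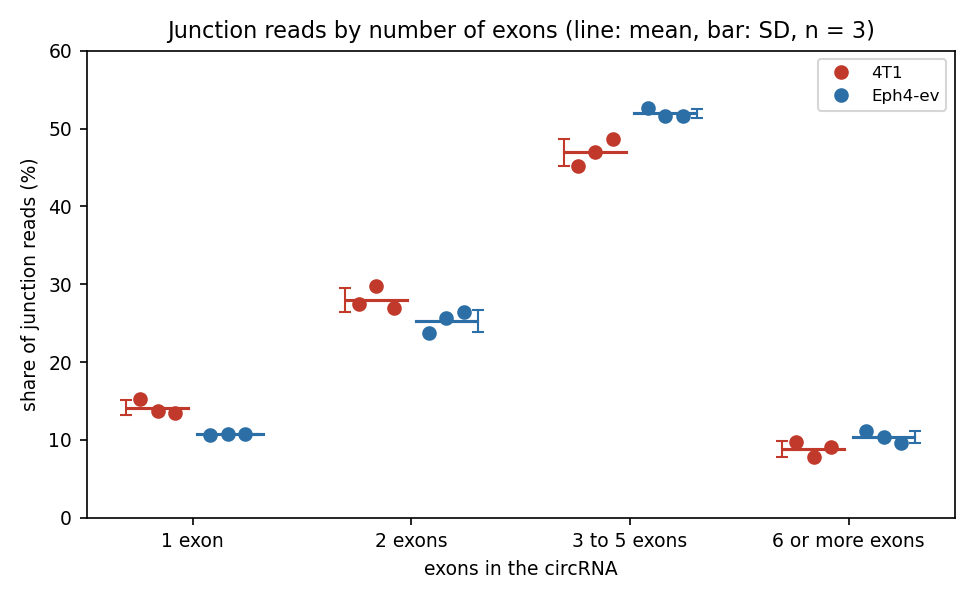
Share of each library's junction reads (percent) in circRNAs of 1, 2, 3 to 5 and 6 or more exons (red 4T1, blue Eph4-ev; points are libraries, lines means, bars SD, n = 3). Single-exon circRNAs lie at 13.5 to 15.2% in 4T1 and 10.7 to 10.8% in Eph4-ev, and those of 3 to 5 exons show the reverse order.

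In the test per circRNA, the median log2 fold was 0.19 over 143 single-exon circRNAs, 0.01 over 515 of 2 exons, -0.33 over 999 of 3 to 5 exons and -0.68 over 185 of 6 or more. Of these classes in turn, 6.99%, 10.9%, 11.4% and 16.8% were called lower in 4T1, beside 11.4% of all tested, and 6.99%, 9.32%, 4.50% and 2.70% higher, beside 5.99%. Single-exon circRNAs thus had 10 calls in each direction, and the largest share of higher calls was that of 2 exons. The exon classes were set after the values were seen, and these medians and shares are those of the fit at full depth. At equal depth the median over all tested circRNAs was 0.002 in place of -0.22, and medians per class were not computed there. Within hosts, where a host had tested circRNAs of 1 exon and of more, the single-exon one had the higher log2 fold in 34 of 50 hosts, with a median difference of 0.73. Comparing the circRNA of fewest with that of most exons, the fewest had the higher fold in 183 of 340 hosts (median difference 0.17). The single-exon circRNAs themselves went both ways. Exon 2 of Med13l, which belongs to the Mediator kinase module, had 220, 199 and 379 reads against 148, 167 and 189 (log2 fold 1.61 with SE 0.18, edgeR adjusted p = 0.000323). Exon 2 of Smad1, a BMP signal transducer, had 18, 15 and 63 against 98, 162 and 151 (log2 fold -1.31 with SE 0.29, adjusted p = 0.0142). Exon 2 of Hipk3, a kinase gene known for its abundant circRNA, had 40, 48 and 134 against 136, 142 and 113 and was not called. These 3 are among the 10 most read of the class and were chosen after their values were seen.

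By genomic span, the short circles took a larger part of the reads in 4T1. Those under 1 kb, of which 36.3% have 1 exon, held 17.4%, 17.7% and 16.3% of the reads in 4T1 against 12.6%, 13.0% and 13.8%. Circles of 1 to 10 kb held 46.5% ± 1.02 against 49.8% ± 0.510, and those of 50 kb or more 2.81% ± 0.439 against 2.08% ± 0.121 (SD, n = 3). The lines did not overlap in these 3 classes, which were set after the values were seen (exact permutation p = 0.1 each). Taken as 1 class, circles of 10 kb or more did overlap and held 36.4% ± 1.26 of 4T1 reads and 37.0% ± 1.14 of Eph4-ev reads (SD, n = 3; exact permutation p = 0.6). The 10 most read circRNAs took 8.72% ± 0.603 and 8.56% ± 0.262 (exact permutation p = 0.6). Circles that start at exon 2, the first exon that a splice acceptor precedes, held 47.3% ± 0.877 and 49.1% ± 0.479 of the reads, and those that hold the start codon 21.2% ± 0.786 and 22.0% ± 0.236 (SD, n = 3; exact permutation p = 0.1 and 0.2).

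Hosts were then grouped by function. Among tested hosts, 6.86% were higher and 10.6% lower, and each list below is read beside these shares; no list was tested as a set. Most lists held calls in both directions. The medians of chromatin regulators, DNA repair and the ubiquitin system changed sign under total-read scaling (from -0.02 to 0.13, -0.02 to 0.09 and -0.06 to 0.07), so no direction is given for them.

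**Figure D3:**
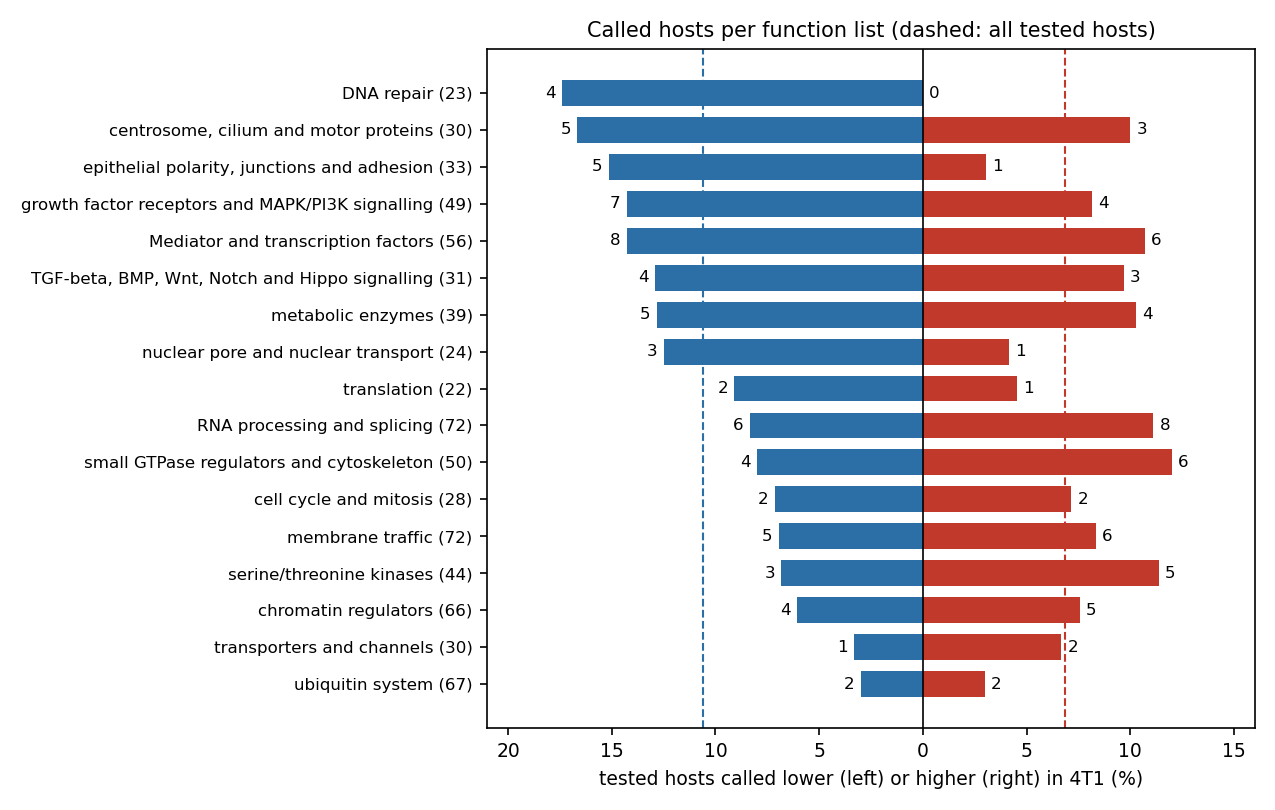
Percent of the tested hosts of each function list called lower (blue, left) or higher (red, right) in 4T1 by edgeR, with the number called at each bar, the number tested in brackets, and dashed lines at the shares of all tested hosts (10.6% lower, 6.86% higher). DNA repair has 4 hosts lower and 0 higher of 23, and the ubiquitin system 2 each way of 67.

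Of 94 genes of TGF-beta, BMP, Wnt, Notch and Hippo signalling, 31 were tested, with 3 higher and 4 lower. Nf2, which encodes merlin, an upstream activator of Hippo signalling, had 14 circRNAs with 5, 7 and 18 reads in 4T1 against 282, 237 and 292 in Eph4-ev. The lines lay far apart in every library (log2 fold -3.83 with SE 0.27, edgeR adjusted p = 1.39e-07). Tead1, the DNA-binding partner of the Hippo effector Yap, went the other way, with 37, 52 and 160 against 37, 57 and 58 (log2 fold 1.56 with SE 0.27, adjusted p = 0.00122). Of the Smad genes, which carry TGF-beta and BMP signals, Smad1, Smad3 and Smad4 were all called lower. Smad3 had 0 reads in 4T1 against 9, 11 and 10 in Eph4-ev (at least 4.78-fold lower, adjusted p = 0.032), and Smad4 14, 0 and 9 against 76, 87 and 71 (log2 fold -2.28 with SE 0.61, adjusted p = 0.018). Without Eph4-ev replicate 2 none of the 3 passed, Smad3 and Smad4 did not pass without 4T1 replicate 3, Smad3 was also lost without either other Eph4-ev library, and DESeq2 did not call Smad4. Lrp5, a Wnt coreceptor, was higher (10, 23 and 96 against 18, 35 and 27, log2 fold 1.42 with SE 0.44, adjusted p = 0.0356) and lost its call without each single library other than 4T1 replicate 1.

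Of 145 genes of growth factor receptors and MAPK/PI3K signalling, 49 were tested, with 4 higher and 7 lower. Fgfr2 gave reads only in Eph4-ev, as above (at least 30.3-fold lower, edgeR adjusted p = 5.63e-05). Of those higher, Phlpp1 had 42, 91 and 229 reads against 37, 29 and 50 (log2 fold 2.48 with SE 0.30, adjusted p = 4.27e-05). Rptor, the substrate-binding subunit of mTORC1, had 15, 19 and 67 against 14, 15 and 8 (log2 fold 2.25 with SE 0.45, adjusted p = 0.00327). Map2k5, the kinase upstream of ERK5, had 8, 10 and 29 against 0 (at least 31.3-fold higher, adjusted p = 0.00082).

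Among 142 chromatin regulators, 66 were tested, with 5 higher and 4 lower. Ezh2, the methyltransferase of Polycomb repressive complex 2, had 12 circRNAs with 23, 22 and 82 reads in 4T1 against 286, 310 and 316 in Eph4-ev (log2 fold -1.98 with SE 0.22, edgeR adjusted p = 1.57e-05). Asxl2, a Polycomb-group protein gene, had 12, 19 and 25 against 111, 143 and 131 (log2 fold -1.75 with SE 0.30, adjusted p = 0.000947). Both were low in all 4T1 libraries. Ankrd11, a cofactor that binds histone deacetylases, was higher, with 46, 61 and 118 against 29, 45 and 67 (log2 fold 1.66 with SE 0.29, adjusted p = 0.00122). The host calls of Ezh2, Asxl2 and Ankrd11 held without any 1 library.

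The RNA processing and splicing list (234 genes) had 72 tested hosts, 8 higher (11.1%) and 6 lower (8.33%), with a median log2 fold of 0.19. Splicing factor genes stood on both sides. The circRNAs of Ptbp3 summed to 11, 32 and 41 reads against 402, 511 and 505 (log2 fold -3.09 with SE 0.26, edgeR adjusted p = 5.21e-07). Dhx15, a helicase that takes the spliceosome apart, had 4, 3 and 9 against 71, 81 and 70 (log2 fold -2.83 with SE 0.42, adjusted p = 0.000296). Cpsf6, a factor of pre-mRNA 3′ end processing, had 22, 20 and 63 against 136, 189 and 143 (log2 fold -1.24 with SE 0.25, adjusted p = 0.00306). Qk encodes an RNA-binding protein that is known to promote circRNA formation. Its 5 circRNAs had 36, 69 and 114 reads against 25, 18 and 23 (log2 fold 2.68 with SE 0.32, adjusted p = 3.15e-05). These 4 host calls held without any 1 library.

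Of 108 DNA repair genes, 23 were tested: edgeR called 0 higher and 4 lower (17.4%), DESeq2 also 0 and 4, and at an unadjusted p under 0.05 there were 3 and 4. Rad23b had 0 reads in 4T1 against 96, 77 and 70 in Eph4-ev over 2 circRNAs (at least 39.1-fold lower, edgeR adjusted p = 1.71e-05). Rad18, a ubiquitin ligase of damage tolerance, had 6, 2 and 5 against 38, 45 and 55 (log2 fold -2.34 with SE 0.56, adjusted p = 0.0104). Rev1, a translesion polymerase, had 14, 9 and 14 against 65, 69 and 89 (log2 fold -1.51 with SE 0.40, adjusted p = 0.0168). Rad18 and Rev1 lost their calls without Eph4-ev replicate 2 or 3, and Rev1 also without 4T1 replicate 3.

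Cell cycle and mitosis genes (128, of which 28 were tested) had 2 higher and 2 lower. Bub1b, a kinase of the spindle checkpoint, had 21, 5 and 4 reads over 8 circRNAs against 186, 158 and 183 (log2 fold -2.96 with SE 0.54, edgeR adjusted p = 0.00161; 0.061 without Eph4-ev replicate 2). Stag1, a cohesin subunit, had 65, 52 and 160 reads over 18 circRNAs against 63, 85 and 85 (log2 fold 1.18 with SE 0.23, adjusted p = 0.00268). Mcm9, a helicase of the minichromosome maintenance family, had 0 against 7, 7 and 13 (at least 4.29-fold lower, adjusted p = 0.0411), a call that was lost without any 1 of the 6 libraries and under DESeq2. The list of centrosome, cilium and motor proteins (117, 30 tested) had 3 higher and 5 lower. Its leading hosts were each seen in 1 line alone. Mtcl1 had 10, 30 and 80 reads in 4T1 (at least 74.7-fold higher, adjusted p = 3.15e-05). Tacc2, a centrosomal coiled-coil protein gene, had 47, 27 and 41 in Eph4-ev (at least 18.6-fold lower, adjusted p = 0.000681), and Cntln, a centriole protein gene, had 38, 38 and 29 (at least 16.8-fold lower, adjusted p = 0.000778).

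Epithelial polarity, junction and adhesion genes (120, 33 tested) had 1 higher and 5 lower (15.2%). Inadl encodes a scaffold of the Crumbs polarity complex, and its 16 circRNAs had 1, 11 and 11 reads in 4T1 against 76, 82 and 95 in Eph4-ev (log2 fold -2.47 with SE 0.47, edgeR adjusted p = 0.00239). Myo5b, a motor of apical recycling, had 1, 5 and 19 against 72, 95 and 64 (log2 fold -2.38 with SE 0.47, adjusted p = 0.0027). Without Eph4-ev replicate 2 these 2 stood at 0.0526 and 0.0614. Lpp, a LIM protein of focal adhesions, was the 1 host higher, with 23, 18 and 50 against 5, 4 and 7 (log2 fold 3.42 with SE 0.50, adjusted p = 0.000273), and its call held without any 1 library. The median log2 fold of the 33 tested members was 0.10, against -0.09 for all tested hosts. Tacc2 and Myo5b are members of this list and of the centrosome list, and Tacc2, described above as a centrosomal protein gene, counts among the 5 lower.

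Serine/threonine kinases (140, 44 tested) had 5 higher (11.4%) and 3 lower (6.82%), with a median of 0.29. Vrk1, a nuclear kinase that acts on chromatin, had 21, 24 and 42 reads against 1, 8 and 2 (log2 fold 3.96 with SE 0.62, edgeR adjusted p = 0.000469). Hipk2, a kinase of stress responses, had 1, 3 and 0 against 49, 56 and 38 (log2 fold -4.01 with SE 0.78, adjusted p = 0.00263; 0.0686 without Eph4-ev replicate 2). Stk39, described above, belongs here (adjusted p = 5.06e-07). The small GTPase regulators and cytoskeleton genes (158, 50 tested) had 6 higher (12%) and 4 lower (8%). Arhgap32 led those higher (adjusted p = 6.25e-07). Dtnb, with 24 circRNAs, had 42, 58 and 174 reads against 696, 925 and 763 (log2 fold -2.26 with SE 0.18, adjusted p = 3.47e-07). Most of these reads are those of its circRNA of exons 5 to 8, given above, so the sum is not separate support. Wasf2, an activator of the Arp2/3 complex, had 0 against 26, 21 and 25 (at least 11.6-fold lower, adjusted p = 0.00296).

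Membrane traffic genes (245, 72 tested) had 6 higher and 5 lower. Vapa summed to 26, 31 and 74 reads against 404, 464 and 424 (log2 fold -2.37 with SE 0.18, edgeR adjusted p = 3.24e-07), nearly all from the circRNA given above. Vps50, a subunit of a tethering complex of endosome recycling, had 3, 8 and 25 against 105, 65 and 85 over 14 circRNAs (log2 fold -1.99 with SE 0.41, adjusted p = 0.00405). Uvrag, summed with its circRNA given above included, was higher, with 25, 51 and 113 against 23, 21 and 35 (log2 fold 2.14 with SE 0.34, adjusted p = 0.000489). Summed over the host, all 3 calls held without any 1 library. The ubiquitin system (229, 67 tested) had 2 higher and 2 lower, 2.99% each and under the shares of all hosts. Rnf169, a ligase recruited to DNA breaks, had 32, 38 and 36 against 163, 188 and 198 (log2 fold -1.25 with SE 0.30, adjusted p = 0.00985). Fbxo42, an F-box protein gene, had 10, 4 and 5 against 0 (at least 17.7-fold higher, adjusted p = 0.0127). Usp6nl, counted in this list though it encodes a GTPase activating protein of Rab5, had 7, 11 and 16 against 58, 82 and 53 (log2 fold -1.50 with SE 0.39, adjusted p = 0.0166). Without Eph4-ev replicate 2 none of these 3 ubiquitin-list hosts was called, nor was Fbxo42 without Eph4-ev replicate 3 or Usp6nl without Eph4-ev replicate 1 or 4T1 replicate 3.

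Metabolic enzymes (218, 39 tested) had 4 higher and 5 lower. Adk had 28, 33 and 51 reads as a host against 6, 8 and 11 (log2 fold 3.19 with SE 0.43, edgeR adjusted p = 0.000104). Alg12, a mannosyltransferase of N-glycan assembly, had 6, 16 and 25 against 108, 116 and 132 (log2 fold -1.96 with SE 0.32, adjusted p = 0.000778). Ogdh, a subunit of the 2-oxoglutarate dehydrogenase complex, had 18, 17 and 39 against 101, 151 and 136 (log2 fold -1.41 with SE 0.27, adjusted p = 0.0024). All 3 were called without any 1 library. Transporters and channels (169, 30 tested) had 2 higher and 1 lower. Slc38a1, a glutamine transporter, had 9, 30 and 24 against 0 (at least 50.8-fold higher, adjusted p = 0.000312). Atp9a, a phospholipid flippase family member, had 12, 9 and 50 against 84, 87 and 119 (log2 fold -1.20 with SE 0.34, adjusted p = 0.0233), and lost its call without Eph4-ev replicate 2 or 3.

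Mediator and transcription factor genes (195, 56 tested) had 6 higher and 8 lower. Med13l, summed over 4 circRNAs, had 228, 213 and 436 reads against 152, 176 and 196 (log2 fold 1.76 with SE 0.17, edgeR adjusted p = 3.2e-06). Zfpm2 had 0 against 56, 74 and 60 (at least 30.2-fold lower, adjusted p = 4.22e-05). Nfatc2, a transcription factor activated by calcineurin, had 0, 2 and 0 against 43, 41 and 40 (adjusted p = 0.002). Translation genes (90, 22 tested) had 1 higher and 2 lower, with a median of 0.69. Vars, a valyl-tRNA synthetase gene, had 33, 23 and 90 against 6, 35 and 21 (log2 fold 2.14 with SE 0.46, adjusted p = 0.00471). Eif4g3, an initiation scaffold, had 11, 11 and 14 against 79, 67 and 70 (log2 fold -1.53 with SE 0.39, adjusted p = 0.0137), and Eif3a, a subunit of initiation factor eIF3, had 2, 3 and 0 against 23, 28 and 31 (log2 fold -2.81 with SE 0.88, adjusted p = 0.039). Neither was called without 4T1 replicate 3 or without Eph4-ev replicate 1 or 2, nor was Eif3a without Eph4-ev replicate 3 or under total-read scaling.

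Nuclear pore and transport genes (79, 24 tested) had 1 higher and 3 lower. Senp6, a SUMO protease, had 18, 28 and 55 reads over 11 circRNAs against 147, 163 and 142 (log2 fold -1.21 with SE 0.25, edgeR adjusted p = 0.00331). Lmnb1, a lamin of the nuclear envelope, had 3, 1 and 1 against 30, 41 and 41 (log2 fold -3.34 with SE 0.73, adjusted p = 0.00577). Nup155, a scaffold nucleoporin, had 25, 24 and 44 against 21, 21 and 18 (log2 fold 1.65 with SE 0.39, adjusted p = 0.00928). Lmnb1 and Nup155 were not called without Eph4-ev replicate 2, nor Nup155 without Eph4-ev replicate 3. At equal depth, where 727 hosts could be tested, Smad1, Smad4, Lrp5, Rad18, Rev1, Rnf169, Usp6nl, Alg12, Ogdh, Atp9a, Lmnb1 and Nup155 did not pass.

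The circRNAs of a host often shared an edge. Of 3617 hosts, 1965 had 2 or more circRNAs, and 73.6% of the 7680 circRNAs of these hosts had their start or end in common with another. Composition was compared with edgeR's diffSpliceDGE, which asks whether the circRNAs of a host changed by unlike factors and is blind to a change common to all of them. Of 375 hosts with 2 or more tested circRNAs, 34 shifted in composition (9.07%). At equal depth 113 hosts could be tested, and 1 was called. In 291 hosts the most read circRNA was the same in all libraries of each line, and in 11 of them (3.78%) it was a different one in each line; this count was chosen after the data were seen.

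The junctions below show how such pairs differ. They are written as above, 15 bases on each side, and the letters shared within a pair mark the edge that the pair of circles has in common.

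Acer3, exons 2 to 7, chr7:98243949-98266247, minus strand: ttatattgttacatgGGAATACAGTGAGTA
Acer3, exons 2 to 6, chr7:98251890-98266247, minus strand: cctatattccatcagGGAATACAGTGAGTA
Cnksr3, exons 2 to 4, chr10:7152864-7160807, minus strand: acagcagtccagaagGGTTGGATGACTGCC
Cnksr3, exons 3 to 4, chr10:7152864-7154485, minus strand: acagcagtccagaagAATTATGGCCTTGAA
Nedd4, exons 2 to 6, chr9:72669952-72686114, plus strand: gatgaaaatcgtttgGTATGGGAGTTTTGC
Nedd4, exons 2 to 5, chr9:72669952-72677531, plus strand: gaaatactgttcaggGTATGGGAGTTTTGC
Ep400, exon 2, chr5:110755397-110756766, minus strand: gttatcaacgatgagGGGAACAGTACATTG
Ep400, exons 2 to 3, chr5:110753804-110756766, minus strand: cagcaaccgtttcagGGGAACAGTACATTG
Glce, exons 2 to 4, chr9:62068385-62088519, minus strand: agtttattgctccagGAATTTAACAAGAAA
Glce, exons 3 to 4, chr9:62068385-62070613, minus strand: agtttattgctccagGTATGGTCTGAATAT

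Acer3 encodes an alkaline ceramidase of sphingolipid breakdown. The circle of its exons 2 to 7 had 17, 19 and 50 reads in 4T1 against 76, 76 and 73 in Eph4-ev, and the circle that ends 1 exon earlier had 0 in 4T1 and 46, 33 and 24 in Eph4-ev. The pair starts at the same exon, so the capitals of their junctions are alike, and only the downstream edge differs. The shorter one took 29.2% ± 5.52 of the host's reads in Eph4-ev (SD, n = 3) and none in 4T1 (diffSpliceDGE adjusted p = 0.00183). In Cnksr3, a member of the connector enhancer of kinase suppressor of Ras family, the upstream edge differed instead. Exons 3 to 4 had 0 reads in 4T1 against 19, 26 and 28 in Eph4-ev, while exons 2 to 4 had 7, 18 and 52 against 20, 19 and 13. The share of exons 2 to 4 was 100% in each 4T1 library and 35.6% ± 8.96 in Eph4-ev (SD, n = 3; adjusted p = 0.000795).

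Nedd4, a ubiquitin ligase, gave exons 2 to 6 with 15, 24 and 61 reads in 4T1 and 0 in Eph4-ev, and exons 2 to 5 with 12, 0 and 0 against 28, 24 and 0. Eph4-ev replicate 3 had no read of any Nedd4 circRNA, so its shares rest on 2 libraries of that line (diffSpliceDGE adjusted p = 0.00343). Rptor had exons 3 to 4 in 4T1 alone (11, 8 and 20 reads) and exons 10 to 13 in both lines, with 2, 0 and 9 against 11, 7 and 8 (adjusted p = 0.00343). Exons 10 to 13 were not called on their own, whereas the host's sum was higher in 4T1. In Pvt1, a long noncoding gene, exon 2 alone held 89.1% ± 2.18 of reads in 4T1 and 94.9% ± 1.08 in Eph4-ev. The circle from exon 2 to an exon ending at position 62175548 of chromosome 15 held 8.12% ± 1.55 against 1.46% ± 1.03, with 31, 28 and 56 reads against 18, 10 and 5 (adjusted p = 0.000567). These shifts, with those of Acer3 and Cnksr3, were called without any 1 library.

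Tns3 encodes a tensin of focal adhesions, and its circles come from separate exons. Exons 14 to 16 held 60.2% ± 2.40 of the reads in 4T1 and 42.3% ± 2.84 in Eph4-ev, and exons 18 to 20 held 25.8% ± 1.25 and 47.1% ± 2.77 (SD, n = 3; diffSpliceDGE adjusted p = 0.00501). The order of the 2 circles was the same in the 3 libraries of 4T1 and changed places in Eph4-ev replicates 2 and 3. In Prim2, the large primase subunit gene, exons 8 to 10 had 0 reads against 12, 34 and 24, and exons 6 to 7 had 10, 4 and 21 against 5, 13 and 10 (adjusted p = 0.00504). Trio, a guanine nucleotide exchange factor gene, had exons 10 to 11 with 3, 6 and 27 reads against 2, 0 and 2, and exons 2 to 3 with 0 against 8, 7 and 11 (adjusted p = 0.00343). Cnot6l, a deadenylase gene, had exons 2 to 4 with 31, 41 and 114 reads against 317, 280 and 331, a share of 66.8% ± 4.27 against 92.6% ± 1.48 (adjusted p = 0.0134). Without Eph4-ev replicate 2 the composition p was 0.0817 for Tns3, 0.0756 for Prim2, 0.0804 for Trio and 0.101 for Cnot6l. Prim2 also lost its call without 4T1 replicate 3, and Cnot6l without 4T1 replicate 2 or Eph4-ev replicate 1.

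In a few hosts the leading circle itself was a different one. Ep400 encodes a chromatin remodelling ATPase. Its exon 2 circle had 25, 15 and 53 reads in 4T1 against 25, 17 and 31 in Eph4-ev, and exons 2 to 3 had 8, 6 and 43 against 53, 61 and 72. The first held 63.8% ± 11.4 of reads in 4T1 against 27.4% ± 5.75 in Eph4-ev (SD, n = 3), and the second 30.7% ± 10.6 and 70.4% ± 4.26 (diffSpliceDGE adjusted p = 0.0293, lost when any library other than 4T1 replicate 3 was left out). Glce, an epimerase of heparan sulfate synthesis, had exons 2 to 4 with 24, 10 and 56 reads against 10, 9 and 17, and exons 3 to 4 with 3, 0 and 23 against 21, 16 and 22. The share of exons 2 to 4 was 86.6% ± 14.7 in 4T1 and 37.3% ± 5.77 in Eph4-ev, but the composition test did not call it (adjusted p = 0.0782). Rasa2, a Ras GTPase activating protein gene, had exons 2 to 5 ahead in 4T1 (60.9% ± 0.824 against 45.1% ± 4.16) and exons 2 to 4 ahead in Eph4-ev (35.9% ± 1.21 against 51.7% ± 4.31). Its composition was not called either (adjusted p = 0.379), although exons 2 to 4, with 51, 36 and 103 reads against 247, 251 and 254, was lower on its own (log2 fold -1.11 with SE 0.21, edgeR adjusted p = 0.00687).

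**Figure D4:**
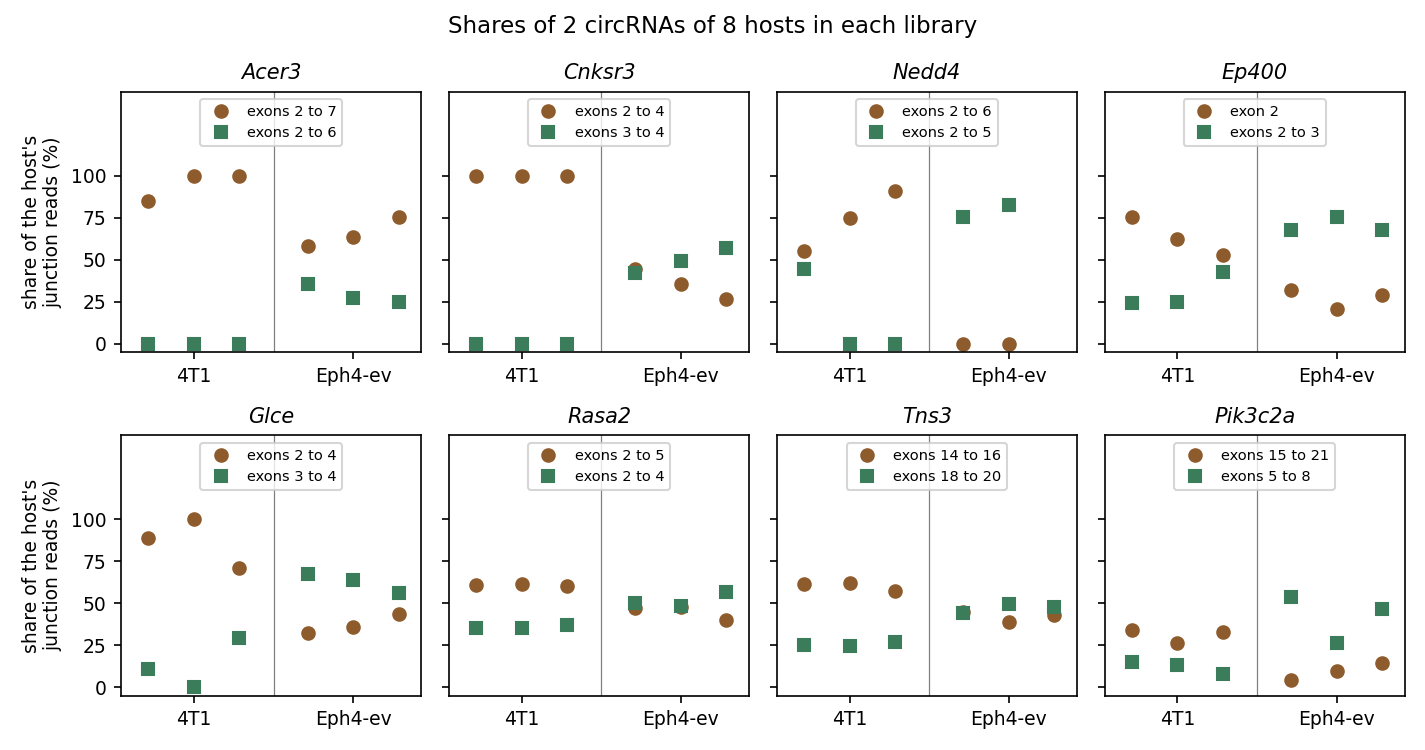
Share of a host's junction reads, in percent, held by each of 2 circRNAs (brown circles and green squares, exons in the key) in 8 hosts, with 1 point per circRNA and library, 4T1 left and Eph4-ev right of the line (3 libraries each, for Nedd4 2 of Eph4-ev). The circRNA with exons 2 to 6 of Acer3 and that with exons 3 to 4 of Cnksr3 stand at 0 in all 4T1 libraries, and the circRNA with the larger share differs between the lines in Ep400, Glce and Rasa2.

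Where a host had several called circRNAs they mostly went one way. Of 39 hosts with 2 or more called circRNAs, 11 had all of them higher, 22 all lower and 6 both (Mllt10, Pik3c2a, Pvt1, Rere, Tns3 and Trio). Pik3c2a encodes a class II PI3-kinase. Reads of its exons 15 to 21 were 16, 12 and 43 against 6, 13 and 19 (log2 fold 1.71 with SE 0.51, edgeR adjusted p = 0.04), and its exons 5 to 8 had 7, 6 and 10 against 75, 36 and 61 (log2 fold -1.97 with SE 0.47, adjusted p = 0.0178). The first call was lost without any library other than 4T1 replicate 2, and the second without Eph4-ev replicate 1 or 3. Rere, a transcriptional corepressor gene, had exons 2 to 3 with 19, 13 and 10 reads against 0, 0 and 3 (adjusted p = 0.0148), and exons 4 to 7 with 5, 2 and 6 against 48, 30 and 28 (log2 fold -2.10 with SE 0.59, adjusted p = 0.0326). Neither held in every leave-one-out fit, and both were lost without Eph4-ev replicate 2.

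A single circRNA was found for 45.7% of hosts, while the 86 hosts with 10 or more (2.38%) held 16.7% of all junction reads. Among the hosts with the most were Arhgap10 with 30, Rere with 28, Dtnb with 24, Tasp1 with 23 and Ehmt1 and Ckap5 with 21 each. Arhgap10, a GTPase activating protein gene, had 127, 175 and 345 reads against 364, 386 and 443 and was not called as a host. Rere, Ehmt1 and Ckap5 were not called as hosts either, while Dtnb was lower, as given above. Tasp1, a threonine protease that cleaves MLL, had 92, 121 and 247 reads against 169, 222 and 209 (log2 fold 0.58 with SE 0.17, edgeR adjusted p = 0.032), which was not called without 4T1 replicate 2 or 3, without any 1 Eph4-ev library or with no filter. With all libraries thinned to equal depth, a detected host gave 1.67 ± 0.020 circRNAs in 4T1 against 1.78 ± 0.031 in Eph4-ev (SD, n = 3; exact permutation p = 0.1, the lowest that 3 against 3 can give, and 0.167 adjusted over 5 such measures). The 4T1 libraries gave 1.70, 1.67 and 1.66 and the Eph4-ev libraries 1.76, 1.81 and 1.76, without overlap. Counting circRNAs with at least 2 reads moved the difference from -0.10 to -0.04.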

How the data were processed

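RNase R-treated libraries, 3 of 4T1 and 3 of Eph4-ev, were compared from 1 deposited table. The authors deposited, per circRNA and library, back-spliced junction read counts with no normalization, and RPM values, which per the file headers stand beside the counts and equal the count scaled to the column's total (largest difference on recomputing 4.82e-06). Detection used CIRI2, which reads BWA-MEM alignments, and CIRCexplorer2, which reads those of TopHat, per the labels' protocols; the build was mm10, per the submitters' processing notes. How the reads of both detectors were merged is not given in the sources used here. RNase R and PCR act before counting, so levels are those of the treated library, and reads are not independent molecules.

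Counts were tested with edgeR 4.0.16 in R 4.3.3 by its quasi-likelihood F test with TMM factors, after filterByExpr at min.count 5 and min.total.count 10, and called at a Benjamini-Hochberg adjusted p under 0.05. Host counts are sums over circRNAs that name 1 host. The SE is the absolute log2 fold over the square root of F. Composition was tested with diffSpliceDGE. Exons and junctions come from GENCODE M21 transcripts. Depth was 15572 to 56649 reads per library, and 1 read is worth 64.2 RPM in the shallowest and 17.7 RPM in the deepest. The fits were tested on simulated data. Alternatives were RLE factors, total-read scaling, no filter, a minimum count of 10, a replicate block, thinning to 15572 reads, DESeq2 1.42.0, Simes p-values for composition, and leaving out each library.

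The members and gene lists were chosen with earlier results of these data known. By rule, named genes were the 3 tested hosts of smallest p per list, the 10 composition shifts of smallest p, the 10 largest folds per direction with a mean of 5 reads in both lines, the 8 most read circRNAs of 1 line alone, the 8 hosts with most circRNAs, and hosts called in both directions; of these a selection is described. Some genes the rules name are not reported here but count in all totals. Exon and span classes, hosts of 1 line alone, leading circRNAs per line, exon 2 and start codon shares, chromosome values and database cells were looked at after the data were seen.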

Additional observations from a re-analysis of the deposited data

How the results depend on the processing

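Numbers of calls changed most at equal depth and without single Eph4-ev libraries. The counts of circRNAs higher and lower (112 and 213) became 52 and 48 of 719 testable at equal depth, and that of higher ones 72 with no filter; leaving out 1 library gave 30 to 85 higher and 42 to 177 lower. Without Eph4-ev replicate 2 they were 30 and 42, without replicate 1 55 and 112, and without replicate 3 48 and 100; without 4T1 replicates 1 and 3 the higher ones were 63 and 54. Hosts (104 and 161) became 54 and 58 of 727 at equal depth, and 31 to 91 and 42 to 179 with 1 library left out. Without Eph4-ev replicates 1, 2 and 3 they were 61, 31 and 52 higher and 96, 42 and 90 lower, and without 4T1 replicate 3 63 were higher. Whichever library was left out, 26 higher and 40 lower circRNAs and 28 and 40 hosts kept their call, and at equal depth 40 and 48 circRNAs and 49 and 55 hosts did.

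The 34 composition shifts became 15 with Simes p-values, 1 of 113 hosts at equal depth, and 6 to 46 with 1 library left out (20, 6 and 16 without Eph4-ev replicates 1, 2 and 3). Same-numbered libraries did not deviate together (correlations 0.029, -0.039 and 0.016), so their numbers do not pair them; with the replicate number as a block there were 82 and 166 circRNAs, 82 and 135 hosts and 8 composition shifts. DESeq2 gave 142 and 223 circRNAs and 126 and 191 hosts, RLE factors 111 and 215 circRNAs, and a minimum count of 10 gave 103 and 157. CircRNAs seen in 4T1 alone (52) were 16 at 5 reads per library and 128 and 108 without 4T1 replicates 1 and 2 (62 to 128 with 1 library left out). Those in Eph4-ev alone (334) were 119 at 5 reads, 76 at equal depth and 447 to 598 with 1 library left out. Hosts with reads in Eph4-ev alone (127) were 39 at equal depth, a setting chosen after seeing the data. With at least 2 reads, the difference in circRNAs per host was -0.0386 and that in the share of hosts with 2 or more circRNAs -1.10 percentage points, in place of -0.104 and -3.41. The share of reads in circles of 10 kb or more and that of the 10 most read changed sign with 1 library left out (up to 0.101 and down to -0.0482 percentage points). Of 200 named calls, 79 held without any 1 library and 75 under every alternative that could test them, and 0 reversed. The cause of these changes was not tested, except that thinning and leaving out a library reduce the reads.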

Other observations

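Host genes of some chromosomes stood to one side, a pattern looked at after the data were seen. Circular reads from chromosome 6 took 2.98%, 2.59% and 3.27% of the 4T1 libraries and 5.95%, 5.84% and 5.74% of the Eph4-ev libraries. Of its 78 tested hosts 1 was higher and 16 lower in 4T1, with a median log2 fold of -1.11, against -0.09 for all tested hosts. Chromosome 4 took 5.51%, 5.52% and 5.46% against 7.43%, 7.80% and 8.14%, with 3 of 111 hosts higher, 21 lower and a median of -0.61. Chromosome 9 went the other way, with 7.99%, 7.32% and 7.28% against 6.10%, 6.26% and 5.89%, 12 of 92 hosts higher, 4 lower and a median of 0.29. Chromosome 11 stood lower by less, with a mean of 6.67% against 8.45% without overlap, 3 of 114 hosts higher, 11 lower and a median of -0.28. By median, chromosomes 18 (-0.56, 1 of 49 hosts higher and 9 lower) and 3 (-0.46, 4 of 69 higher and 6 lower) stood further down than 11. Their read shares did not overlap either. Such separation was common: the read shares of the lines overlapped only for chromosomes 5, 7, 12, 13 and 17. The ratio of mean shares, 4T1 over Eph4-ev, was 1.24 for chromosome 9. It was larger for chromosomes 14 (1.30), 8 (1.30), 10 (1.27) and X (1.26). The number of gene copies in either line was not analysed here.

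The table has a column of circRNA database names, and its filled cells were not spread evenly over the lines. The cell held NA for 1785 circRNAs, of which 1328 had reads in 4T1 alone, 0 in Eph4-ev alone and 457 in both. Of the 7707 circRNAs with a filled cell, 65 had reads in 4T1 alone and 3610 in Eph4-ev alone. CircRNAs with NA held 11.9% of the 4T1 reads and 0.666% of the Eph4-ev reads, and 39 of the 52 circRNAs found only in 4T1 by the rule of 2 reads are among them. For 402 of the 1785, the deposited table of the melanocyte lines gives a filled cell for the same circRNA. The column was therefore used neither as a filter nor as a feature, and the cause of the imbalance was not tested.

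Of the genes that mark breast cell states, Esr1, the estrogen receptor, had 3, 4 and 2 circular reads in 4T1 and 0 in Eph4-ev. These were too few for the main edgeR test. As a host, its adjusted p was 0.117 in edgeR with no filter and 0.0467 in DESeq2. Zeb1, a transcription factor of epithelial-mesenchymal transition, had 0 in 4T1 and 6, 10 and 7 in Eph4-ev, and was not called by edgeR.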
